A study of Homo sapiens with 6 samples.

Results

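Origin licensing was examined through the transcripts of 10 genes, which encode the subunits of the origin recognition complex (ORC1, ORC2, ORC3, ORC4, ORC5 and ORC6), the MCM loading factors CDC6 and CDT1, the CDT1 inhibitor Geminin (GMNN) and CDC7, the catalytic subunit of the DBF4-dependent kinase (DDK). The genes were chosen by name for their function, and all 10 were among the 15585 genes of the count table and among the 11844 genes with enough reads to be tested. The libraries were from U2OS cells, a human osteosarcoma cell line, which were transfected for 48 h with control siRNAs (siCTR, 3 libraries) or with siRNAs against the histone demethylase LSD1 (siLSD1, 3 libraries). Total RNA was sequenced, and the sources used here do not say which LSD1 siRNA went into which library or that the replicates were separate cultures, so the p-values measure the spread between these libraries, which may be technical. The study used the RNA-seq to ask whether depletion of LSD1 affects the expression of DNA replication genes.

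Licensing is the step in late mitosis and G1 in which an origin of replication is made competent to fire. The origin recognition complex binds DNA, CDC6 joins it, and CDT1 brings the MCM2-7 helicase, which is loaded onto DNA as an inactive double hexamer. Geminin binds CDT1 from S phase on and so limits loading to a single round per cell cycle, and CDC7 with its activator DBF4 phosphorylates loaded MCM at the entry into S phase. Several of these genes, ORC1, CDC6, CDT1 and GMNN among them, are known targets of the E2F transcription factors, which the RB family holds in check.

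The libraries held 12513511 to 13561344 counted reads, with a biological coefficient of variation of 12.6% over the genes tested. KDM1A, which encodes LSD1, had 6140 to 6573 reads in siCTR and 1110 to 1246 reads in siLSD1, a level of 18.5% of the control. VIM, a mesenchymal marker, was at 731 to 879.7 CPM (read counts scaled to library size with the TMM method) in the 6 libraries. Of the bone-line markers, COL1A1 was at 9.07 to 14.9 CPM, whereas SPARC and RUNX2 were at or near 0, with 0 to 3 and 0 to 4 reads. The blood cell marker PTPRC had 0 to 1 reads. The libraries differed in how well GC-rich genes were recovered. The mean log2 deviation of the 10% most GC-rich tested genes minus that of the 10% least GC-rich was 0.30, 0.01 and −0.10 in siCTR replicates 1, 2 and 3, and 0.35, 0.02 and −0.58 in siLSD1 replicates 1, 2 and 3, so that siLSD1 replicate 3 stood apart from the other libraries in this measure. In counts over all genes siCTR replicate 2 stood apart, where its chi-square per degree of freedom was 21.6 to 37.4 against the other 5 libraries and the remaining pairs were at 6.19 to 23.2.

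The licensing genes were transcribed at different levels, compared here per gene length as FPKM (reads scaled to gene length and library depth, as deposited by the authors). GMNN had the highest level in siCTR cells, with 80.7 ± 11.0 FPKM (SD, n = 3), and ORC4 had the lowest, with 6.66 ± 0.47 FPKM (SD, n = 3), a 12.1-fold range. GMNN was at 2.89 times the FPKM of CDT1, the protein it inhibits. CDC6 followed GMNN with 35.8 ± 1.23 FPKM, CDT1 was at 27.9 ± 1.98 FPKM and CDC7 at 13.4 ± 0.84 FPKM (SD, n = 3 for each). Within the origin recognition complex the order was ORC6 with 25.9 FPKM, ORC3 with 20.1 FPKM, ORC1 with 18.4 FPKM, ORC5 with 17.1 FPKM, ORC2 with 13.2 FPKM and ORC4 with 6.66 FPKM, so the subunits differed 3.89-fold in transcript level. The siCTR libraries of 4 neighbouring pairs in the order of all 10 genes overlapped in FPKM, namely CDT1 and ORC6, ORC3 and ORC1, ORC1 and ORC5, and CDC7 and ORC2, and these neighbours did not differ beyond their spread. The order of the 10 means was the same in siLSD1 cells, from 75.1 ± 6.56 FPKM for GMNN to 5.99 ± 0.69 FPKM for ORC4 (SD, n = 3). The gene length that the FPKM values imply was 6881 bases for ORC4 and 1359 bases for GMNN, the extremes of the 10, and the level per length of a gene depends on the transcript model behind it.

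The promoters of the licensing genes were searched for E2F words, since E2F binding is the best known input to their transcription. The words TTTCCCGC, TTTCGCGC, TTTGCCGC and TTTGGCGC and their reverse complements were looked for in RefSeq windows (GRCh38.p14) of 250 bases before to 50 bases after each gene start. Such a word lay in the windows of 5 of the 10 genes, ORC3, CDC6, CDT1, GMNN and CDC7, compared with 6.71% of the 9649 tested genes that had a window. Counted by window, it lay in 5 of the 13 windows of these 10 genes (38.5%), compared with 3.31% of all 35116 windows. The windows of ORC1, ORC2, ORC4, ORC5 and ORC6 held none of these letters, which says nothing of binding by E2F elsewhere or to other words. The matches are shown with 10 bases to either side, since they are a feature that part of the genes share and that played no role in their choice. Capitals mark the E2F word, and all are written on the strand of the gene.
ORC3 (chr6:87590113-87590140, + strand): gcgagggcgcGCGGGAAAtcccgagtgc
CDC6 (chr17:40287876-40287903, + strand): gccattcggaTTTGGCGCgagcgcggct
CDT1 (chr16:88803744-88803771, + strand): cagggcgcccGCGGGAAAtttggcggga
GMNN (chr6:24775323-24775350, + strand): ctgggtcggtTTTGGCGCgctctcactt
CDC7, upstream match (chr1:91501034-91501061, + strand): tgcagttcctTTTCCCGCcccccttcgg
CDC7, downstream match (chr1:91501068-91501095, + strand): ccgacctgcgGCGGGAAAgtcgcgcgcc

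Positions are counted from the RefSeq start of each window, which for ORC3, GMNN and CDC7 lies downstream of the outermost GENCODE start given with the gene. The word of ORC3 begins 12 bases before that RefSeq start, that of CDT1 35 bases before it and that of GMNN 80 bases before it. In CDC7 the matches begin 68 and 34 bases before the start, and the matched letters lie in opposite orientation. The word of CDC6 begins at base 8 of the transcribed sequence. ORC3 and CDT1 hold the same letters, GCGGGAAA, as the downstream match of CDC7, and CDC6 and GMNN share TTTGGCGC. CDC7 and GMNN have more than one annotated start, and the match is in the window of 1 start in each.

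No licensing gene differed between siLSD1 and siCTR cells by more than the spread of the replicates. After Benjamini-Hochberg adjustment of the p-values from edgeR's quasi-likelihood test over all genes tested, 0 of the 10 genes had an adjusted p under 0.05, where 1.44% of all tested genes did. An unadjusted p under 0.05 was also reached by 0 of the 10, where 14.0% of all tested genes reached it, and DESeq2 and limma-voom likewise gave 0 at either threshold. The groups overlapped in TMM-scaled CPM for each of the 10 genes, so that 0 of them were set apart, whereas the groups did not overlap for 21.4% of all tested genes. The log2 fold changes of siLSD1 over siCTR ran from −0.17 for ORC6 to 0.17 for CDC7, with a median of −0.07 compared with −0.01 over all tested genes, and 7 of the 10 were below 0. The 95% intervals lay between −0.43 and 0.44 for all 10 genes and reached a median of 0.28 to either side, so a change of 0.5 on the log2 scale lay outside each interval, while these libraries do not settle smaller changes. In bulk RNA, fewer cells in a phase of the cell cycle and less RNA per cell cannot be told apart.

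**Figure D1:**
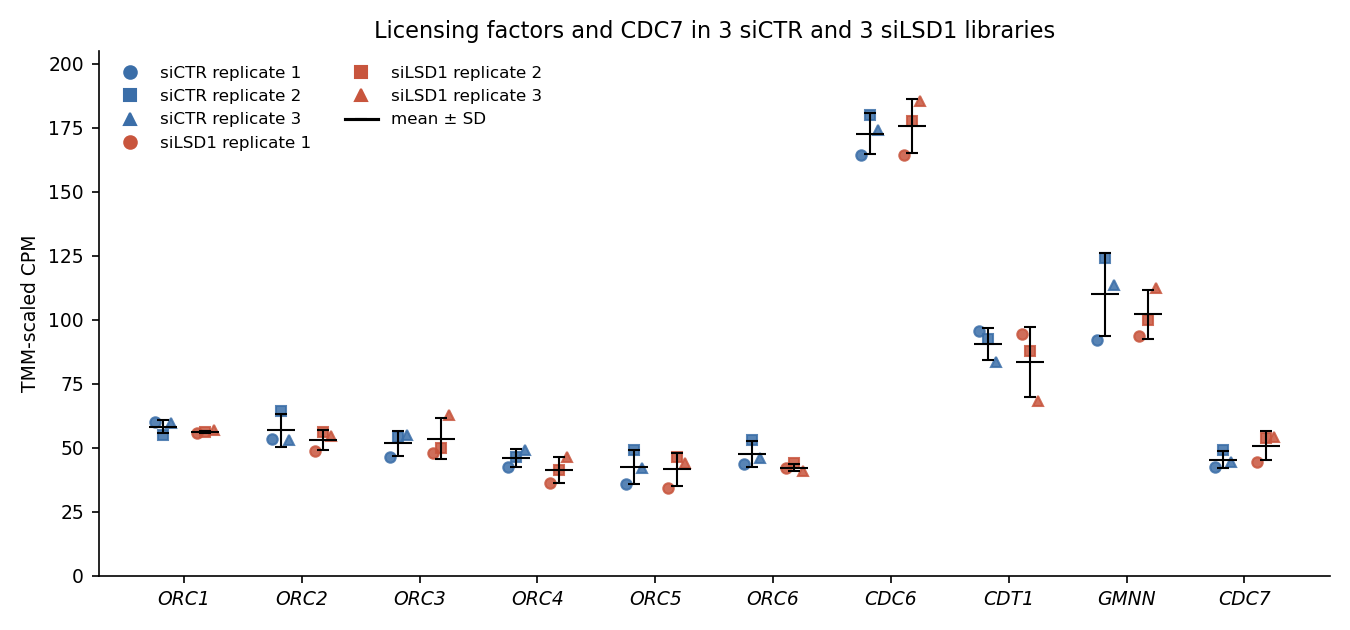
Transcript level of the 10 licensing genes in TMM-scaled CPM (linear axis from 0) in each library, with the siCTR libraries in blue and the siLSD1 libraries in red, symbols for the replicate number, and bars for the mean ± SD (n = 3). The libraries of the groups overlap for each gene, and CDC6 has the most reads, between 164 and 185 CPM in all 6 libraries.

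**Figure D2:**
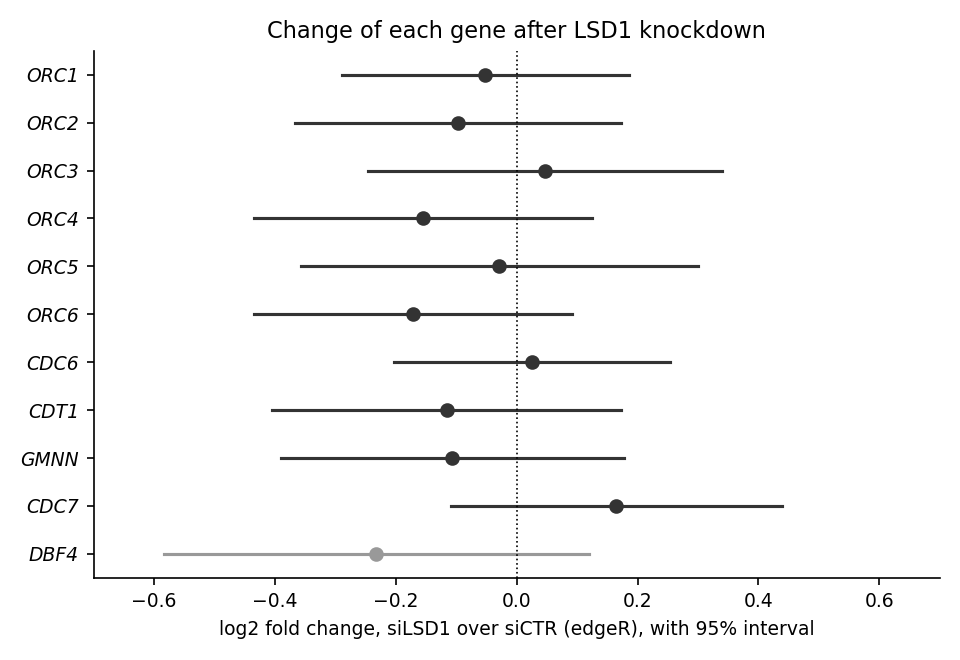
Log2 fold change of siLSD1 over siCTR from edgeR for the 10 licensing genes and, in grey, for DBF4, the activator of CDC7, with the 95% interval as a line. Each interval holds 0, and those of the 10 licensing genes lie between −0.43 and 0.44.

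ORC1 (chromosome 1, 52372829 to 52404423, − strand, GRCh38 from the GENCODE annotation, as for the genes that follow), the subunit that recognises chromatin at origins and is degraded after G1, was at 60.1, 55.1 and 59.5 CPM in siCTR replicates 1, 2 and 3, and at 55.8, 56.0 and 56.7 CPM in siLSD1 replicates 1, 2 and 3. The siLSD1 libraries lay inside the range of the siCTR libraries and within 1 CPM of each other. The level in siLSD1 was 96.5% of the control, with a log2 fold change of −0.05 ± 0.11 (SE), and it was −0.09 without siCTR replicate 2 and −0.03 without siCTR replicate 1.

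ORC2 and ORC3 are core subunits that bind each other. ORC2 (chromosome 2, 200908977 to 200963680, − strand) was at 53.2, 64.3 and 52.9 CPM in siCTR and at 48.7, 56.1 and 54.6 CPM in siLSD1. ORC3 (chromosome 6, 87590067 to 87667453, + strand) was at 46.2, 54.0 and 55.0 CPM in siCTR and at 47.9, 49.8 and 62.6 CPM in siLSD1. For ORC2 a single library, siCTR replicate 2, stood above the other 5, and for ORC3 the highest was siLSD1 replicate 3. The log2 fold changes were −0.10 ± 0.12 for ORC2 and 0.05 ± 0.14 for ORC3 (SE). Without siCTR replicate 2 the log2 fold change of ORC2 was 0.0036, and without siLSD1 replicate 3 that of ORC3 was −0.08.

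ORC4 and ORC5 are AAA+ subunits of the same core. ORC4 (chromosome 2, 147930396 to 148021604, − strand) was at 42.4, 46.2 and 49.2 CPM in siCTR and at 36.1, 41.4 and 46.2 CPM in siLSD1. ORC5 (chromosome 7, 104126341 to 104208047, − strand) was at 35.7, 49.1 and 42.2 CPM in siCTR and at 34.4, 46.2 and 43.96 CPM in siLSD1. In each group the library numbered 1 was the lowest for both genes. The log2 fold changes were −0.15 ± 0.13 for ORC4 and −0.03 ± 0.15 for ORC5 (SE), with unadjusted p-values of 0.254 and 0.852 from edgeR. With a library left out ORC4 ran from −0.07 (siLSD1 replicate 1 omitted) to −0.24 (siLSD1 replicate 3 omitted), and ORC5 was at 0.09 without siCTR replicate 2 and −0.14 without siCTR replicate 1. In a fit corrected for the GC content and length of the genes (the GC-corrected fit), ORC4 had the lowest p-value of the 10, where its log2 fold change was −0.19 (unadjusted p = 0.0377, adjusted p = 0.177 from edgeR with Benjamini-Hochberg adjustment). In that fit 24.3% of all tested genes had an unadjusted p under 0.05. The exons of ORC4 share 431 bases with ACVR2A and 157 bases with MBD5 on the opposite strand, and the sources do not say whether reads were counted by strand, so reads in these stretches cannot be told apart.

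ORC6 (chromosome 16, 46689643 to 46698394, + strand), the subunit least tightly held by the complex, had the lowest p-value of the 10 genes. It was at 43.6, 53.1 and 46.0 CPM in siCTR and at 42.0, 43.9 and 40.8 CPM in siLSD1. The highest siLSD1 library, replicate 2, was only just above the lowest siCTR library, replicate 1. The level in siLSD1 was 88.8% of the control, with a 95% interval from 74.0% to 107% (log2 fold change −0.17 ± 0.12 SE, unadjusted p = 0.183, adjusted p = 0.553 from edgeR with Benjamini-Hochberg adjustment). The groups no longer overlapped when the counts were scaled by library size alone and in the second set of counts that the authors deposited, with siLSD1 lower in both, and in each of these the groups did not overlap for 21.7% of all tested genes. Without siCTR replicate 2 the log2 fold change of ORC6 was −0.08.

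CDC6 (chromosome 17, 40287879 to 40304657, + strand), the ATPase that joins the origin recognition complex and recruits MCM, had the most reads of the 10 genes, with 2131 to 2498 per library. It was at 164, 179.9 and 174 CPM in siCTR and at 164, 177 and 185 CPM in siLSD1. The groups covered nearly the same range, and the level in siLSD1 was 102% of the control, with a 95% interval from 86.9% to 119%. Its log2 fold change of 0.03 ± 0.11 (SE) was the closest to 0 of the 10 genes, and its sign turned with siCTR replicate 1 or siLSD1 replicate 3 left out, to −0.01 in both fits.

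CDT1 (chromosome 16, 88803789 to 88809258, + strand), which carries MCM2-7 to the origin, was at 95.4, 92.3 and 83.6 CPM in siCTR and at 94.4, 87.8 and 68.3 CPM in siLSD1. A single library, siLSD1 replicate 3, lay below the other 5. The log2 fold change was −0.12 ± 0.13 (SE, unadjusted p = 0.402 from edgeR), and it was 0.01 without that library. CDT1 was also the most GC-rich of the 10 genes, with 64.3% GC in its transcript, and 95.1% of the tested genes had a lower GC content. The other 9 genes had 37.7% (ORC4) to 50.7% GC (ORC1). Across the libraries of each group, CDT1 was highest where GC-rich genes were recovered best and lowest where they were recovered least. Its log2 fold change in the GC-corrected fit was 0.05 (unadjusted p = 0.506 from edgeR).

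GMNN (chromosome 6, 24774931 to 24786099, + strand), the inhibitor of CDT1, was at 92.1, 124 and 113 CPM in siCTR and at 93.7, 99.9 and 113 CPM in siLSD1. The siLSD1 libraries lay inside the range of the siCTR libraries, of which replicate 2 was the highest. The log2 fold change was −0.11 ± 0.13 (SE, unadjusted p = 0.432 from edgeR), and it was −0.01 without siCTR replicate 2, −0.22 without siCTR replicate 1 and −0.18 without siLSD1 replicate 3. In the GC-corrected fit it was −0.02.

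The ratio of CDT1 to GMNN reads was compared within each library, since it sets the loading factor against its inhibitor and does not depend on the scaling of the libraries. On the log2 scale it was 0.05, −0.43 and −0.44 in siCTR replicates 1, 2 and 3, and 0.01, −0.19 and −0.72 in siLSD1 replicates 1, 2 and 3. The libraries of the groups were interleaved. The means were −0.27 ± 0.28 in siCTR and −0.30 ± 0.38 in siLSD1 (SD, n = 3), a difference of −0.03 (exact permutation test, two-sided, p = 0.9, and 0.9 after Benjamini-Hochberg adjustment over 2 ratios). The direction turned with a library left out, to 0.13 without siCTR replicate 1 and 0.18 without siLSD1 replicate 3. The ratio was highest in the library numbered 1 of each group, in which GMNN was low and CDT1 high, and these were also the libraries with the best recovery of GC-rich genes.

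CDC7 (chromosome 1, 91500851 to 91525764, + strand) was the licensing gene with the highest log2 fold change. It was at 42.5, 49.1 and 44.3 CPM in siCTR and at 44.3, 53.9 and 54.2 CPM in siLSD1. In siLSD1, replicates 2 and 3 lay above all siCTR libraries, while replicate 1 lay among them. The level in siLSD1 was 112% of the control, with a 95% interval from 92.7% to 136% (log2 fold change 0.17 ± 0.13 SE, unadjusted p = 0.215, adjusted p = 0.585 from edgeR with Benjamini-Hochberg adjustment). The value was above 0 in all 15 alternative fits, from 0.12 without siLSD1 replicate 3 to 0.25 without siLSD1 replicate 1. In the GC-corrected fit it was 0.18 (unadjusted p = 0.0494, adjusted p = 0.204 from edgeR with Benjamini-Hochberg adjustment), so the unadjusted call of CDC7 depends on that correction.

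CDC7 has no kinase activity without an activator, of which DBF4 is the main one. DBF4 (chromosome 7, 87876216 to 87909553, + strand) was at 68.7, 95.6 and 85.1 CPM in siCTR and at 57.1, 68.6 and 86.6 CPM in siLSD1. The groups overlapped, with siLSD1 replicate 3 inside the range of the control. The log2 fold change was −0.23 ± 0.16 (SE, unadjusted p = 0.177, adjusted p = 0.547 from edgeR with Benjamini-Hochberg adjustment), opposite in sign to that of CDC7. With a library left out the value of DBF4 ran from −0.10 without siLSD1 replicate 1 to −0.40 without siLSD1 replicate 3 (unadjusted p = 0.0208 from edgeR). It was −0.12 without siCTR replicate 2 and −0.35 without siCTR replicate 1 (unadjusted p = 0.0487 from edgeR). The unadjusted p was 0.0455 from edgeR with a block for the replicate number, and its adjusted p was above 0.05 in all 15 alternative fits. DBF4 shares 145 exon bases with SLC25A40 on the opposite strand.

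The ratio of CDC7 to DBF4 was likewise read within each library, since kinase and activator act as a pair. The log2 ratio of CDC7 to DBF4 reads was −0.69, −0.96 and −0.94 in siCTR replicates 1, 2 and 3, and −0.37, −0.35 and −0.68 in siLSD1 replicates 1, 2 and 3. All 3 siLSD1 libraries lay above all 3 siCTR libraries, though siLSD1 replicate 3 and siCTR replicate 1 were nearly level. The mean was −0.87 ± 0.15 in siCTR and −0.46 ± 0.18 in siLSD1 (SD, n = 3), a difference of 0.40 or 1.32-fold. The exact permutation test (two-sided) gave p = 0.1, the smallest value that 3 libraries against 3 allow, and 0.2 after Benjamini-Hochberg adjustment over 2 ratios. In the second set of counts the difference was 0.43, and with a library left out it was 0.34 to 0.51. CDC7 and DBF4 are both GC-poor, with 39.1% and 37.7% GC. In the GC-corrected fit their log2 fold changes were 0.18 and −0.23, compared with 0.17 and −0.23 without the correction, and the unadjusted p of DBF4 in it was 0.0477 from edgeR.

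**Figure D3:**
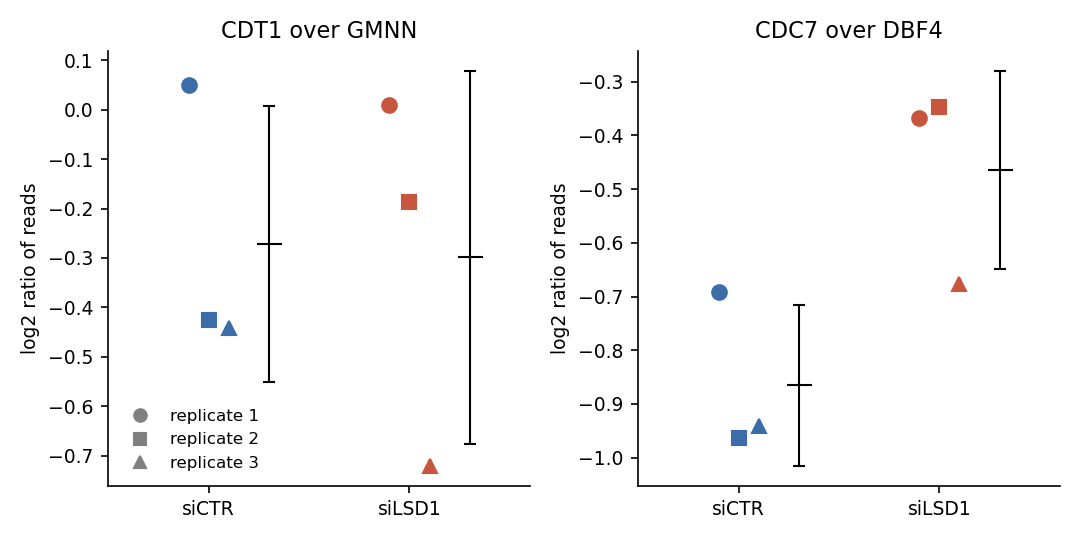
Log2 ratio of reads within each library (vertical axes, which do not start at 0) for CDT1 over GMNN and for CDC7 over DBF4, with siCTR in blue, siLSD1 in red, symbols for the replicate number and bars for the mean ± SD (n = 3). The groups are interleaved for CDT1 over GMNN, and the 3 siLSD1 libraries lie above the 3 siCTR libraries for CDC7 over DBF4.

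Most of the licensing genes shared a pattern in their spread between replicates. It was not counted over all tested genes, so it cannot be called particular to the licensing genes. Within siCTR, replicate 1 was the lowest library for 7 of the 10 genes and replicate 2 the highest for 6. Within siLSD1, replicate 1 was the lowest for 8 genes and replicate 3 the highest for 6. CDT1 did not follow this pattern and was highest in replicate 1 of both groups, and ORC1 was highest in siCTR replicate 1. In each group replicate 1 also had the best recovery of GC-rich genes (0.30 in siCTR and 0.35 in siLSD1). The licensing genes other than CDT1 had 37.7% to 50.7% GC. The part of GC content in the pattern was not tested. The largest deviation of a gene from its mean over the 6 libraries was −0.34 on the log2 scale, for CDT1 in siLSD1 replicate 3, and ORC1 and CDC6 varied least, with deviations of −0.05 to 0.07 and −0.08 to 0.09. 

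**Figure D4:**
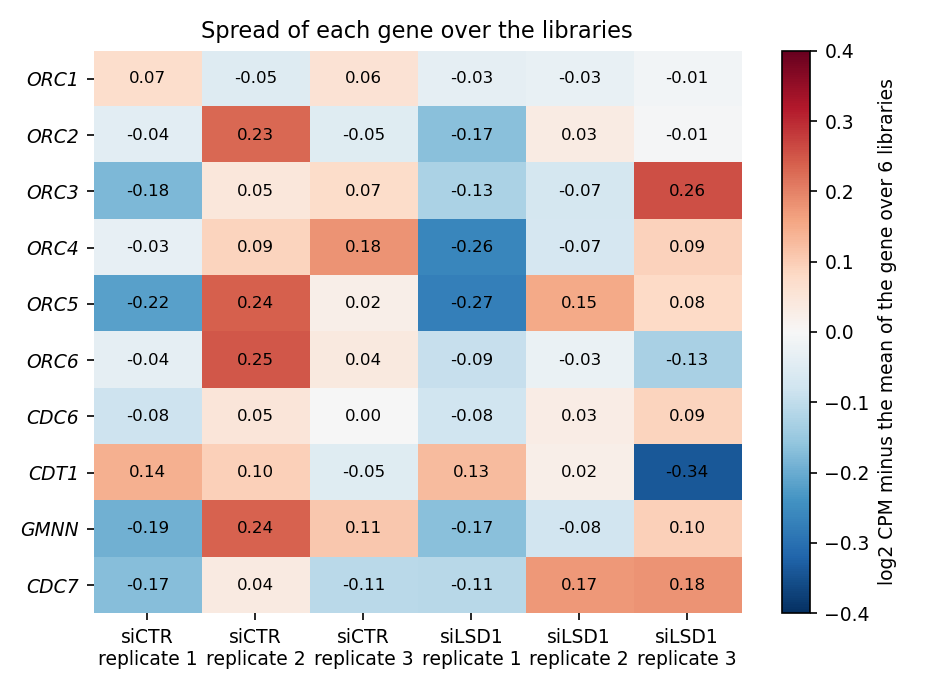
Deviation of log2 CPM from the mean of the gene over the 6 libraries (colour and printed value) for the 10 licensing genes (rows) in each library (columns). Replicate 1 is low in both groups for most genes, CDT1 shows the opposite, and its value of −0.34 in siLSD1 replicate 3 is the largest deviation.

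The 5 genes with an E2F word had log2 fold changes of −0.12 to 0.17 with a median of 0.03, and the 5 without one had −0.17 to −0.03 with a median of −0.10. The ranges overlapped, and this is a description with no test.

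The genes that act with the licensing factors were read from lists of the pathway, in all 61 tested genes of 63 listed. They had a median log2 fold change of −0.06. At an unadjusted p under 0.05, 10 were lower in siLSD1 (16.4%, where 6.55% of all tested genes were) and 1 was higher (1.64%, where 7.48% of all tested genes were). An adjusted p under 0.05 from edgeR with Benjamini-Hochberg adjustment was reached by 1 gene, CDKN1A, where 1.44% of all tested genes reached it. The count of lower genes was 4 without siLSD1 replicate 2 (6.56%, with 3.79% of all tested genes), and 6 without siCTR replicate 2 or siCTR replicate 3 (9.84%, with 5.69% and 6.05% of all tested genes). Of these 11 genes, 4 (CCNE1, CDKN1A, TFDP1 and RBL1) had an unadjusted p under 0.05 from edgeR in all 6 fits that left out a library, and the other 7 did not.

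Among the 6 subunits of the MCM2-7 helicase, the cargo of licensing, the log2 fold changes ran from −0.26 to 0.16 with a median of −0.02. MCM4 had an unadjusted p under 0.05, with a mean of 482 CPM in siCTR and 403 CPM in siLSD1 (log2 fold change −0.26, adjusted p = 0.286 from edgeR with Benjamini-Hochberg adjustment). In the GC-corrected fit the Benjamini-Hochberg adjusted p of MCM4 from edgeR was 0.0297. The 6 DDK activators and counteracting phosphatase genes, with DBF4 and DBF4B among them, had a median of −0.05. Of these, 0 had an unadjusted p under 0.05 from edgeR, where 14.0% of all tested genes did. Of 11 chromatin cofactors of licensing, 8 were below 0, with a median of −0.08 compared with −0.01 over all tested genes. Among them 1 reached an unadjusted p under 0.05, GRWD1, which encodes a histone-binding protein that takes part in MCM loading (log2 fold change −0.27). Of the geminin relatives, MCIDAS was tested at a low level, with a mean of 7.73 CPM in siCTR and 5.42 CPM in siLSD1 (log2 fold change −0.51, unadjusted p = 0.0486 from edgeR). The value of MCIDAS was −0.28 without siLSD1 replicate 3 (unadjusted p = 0.195 from edgeR) and −0.75 without siLSD1 replicate 1, and its unadjusted p was under 0.05 in 7 of 15 alternative fits. Of 16 genes for the turnover of licensing factors, RBX1, the RING subunit of the ubiquitin ligases that degrade CDT1, had an unadjusted p under 0.05 (log2 fold change −0.40, 46.4 CPM in siCTR and 35.1 CPM in siLSD1). Without siCTR replicate 2 the value of RBX1 was −0.19 (unadjusted p = 0.142 from edgeR), and its adjusted p with the replicate block was 0.0449 after Benjamini-Hochberg adjustment in edgeR.

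The genes of the cyclin-dependent kinases, which with their cyclins bar licensing outside G1, and of their inhibitors held 4 of the 10 lower genes among 9 tested. Over all tested genes 6.55% were lower at an unadjusted p under 0.05. CDKN1A, which encodes the inhibitor p21, fell from a mean of 54.4 CPM in siCTR to 29.1 CPM in siLSD1 (log2 fold change −0.90 ± 0.12 SE, adjusted p = 0.00356 from edgeR with Benjamini-Hochberg adjustment), and its adjusted p was between 0.00488 and 0.0220 with a library left out. CDKN1B, which encodes the inhibitor p27, was at 67.5 and 55.0 CPM (log2 fold change −0.30). The E-type cyclins, which activate CDK2 at the entry into S phase, were at 50.2 CPM in siCTR and 38.3 CPM in siLSD1 for CCNE1 and at 23.3 and 17.0 CPM for CCNE2, with log2 fold changes of −0.39 and −0.45. These genes did not pass, with Benjamini-Hochberg adjusted p-values from edgeR of 0.285 for CDKN1B, 0.134 for CCNE1 and 0.172 for CCNE2. The adjusted p-values from edgeR were under 0.05 for both cyclins in the GC-corrected fit, at 0.0209 for CCNE1 and 0.0461 for CCNE2, and with the replicate block, at 0.0304 and 0.0269. In the E2F and RB family, with 12 tested genes and a median of 0.00, RBL1, which encodes the RB relative p107, was the single gene that was higher at an unadjusted p under 0.05, with 42.5 CPM in siCTR and 57.1 CPM in siLSD1 (log2 fold change 0.43, adjusted p = 0.102 from edgeR with Benjamini-Hochberg adjustment). TFDP1, the partner of E2F proteins on DNA, and E2F5, a repressive E2F, had log2 fold changes of −0.33 and −0.38, and did not pass either, with Benjamini-Hochberg adjusted p-values from edgeR of 0.170 and 0.247. The adjusted p-values in the GC-corrected fit of edgeR were 0.00980 for RBL1, 0.0225 for TFDP1 and 0.0470 for E2F5, and RBL1 also passed with DESeq2 (adjusted p = 0.0488) and with the replicate block (adjusted p = 0.0152).

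Since most licensing genes follow the cell cycle, markers of its phases were read in the same libraries. The summed level of 10 S phase markers was 1441 to 1551 CPM in siCTR and 1452 to 1501 CPM in siLSD1, inside the range of the control. The summed level of 10 G2/M markers was 3063 to 3469 CPM in siCTR and 3130 to 3959 CPM in siLSD1, highest in siLSD1 replicate 3, and 9 of the 10 had a log2 fold change above 0. Their median was 0.08, compared with −0.01 over all tested genes. HMMR was the one G2/M marker with an unadjusted p under 0.05 (log2 fold change 0.39, adjusted p = 0.243 from edgeR with Benjamini-Hochberg adjustment). Its log2 fold change was 0.22 without siLSD1 replicate 3 (unadjusted p = 0.115 from edgeR), and its adjusted p from edgeR was 0.0209 with the replicate block and 0.0224 in the GC-corrected fit. Of the epithelial markers, CDH1 was at a mean of 6.15 CPM in siCTR and 10.5 CPM in siLSD1 (log2 fold change 0.77, adjusted p = 0.0699 from edgeR with Benjamini-Hochberg adjustment, and under 0.05 in 4 of 15 alternative fits), EPCAM had 28 to 41 reads and KRT5 0 to 1 reads per library. The part of these markers in the values of the licensing genes was not tested.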

How the data were processed

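RNA-seq libraries of U2OS cells (3 siCTR, 3 siLSD1) were grouped by their labels. Per the submitters' processing notes, reads were aligned with STAR. Genome build, annotation and read counter are not given in the sources used here. The authors deposited whole-number read counts per gene without normalization for all 6 libraries, beside a normalized signal (the count divided by a size factor, deposited by the authors and not used) and FPKM values, deposited by the authors as reads scaled to gene length and depth. Tables deposited by the authors for pairs of same-numbered siCTR and siLSD1 libraries hold these libraries' counts from a second counting, slightly higher. The authors' fold changes and p-values were not used.

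Counts were compared by the quasi-likelihood test of edgeR 4.0.16 in R 4.3.3, without covariates, after TMM scaling and removal of low genes by filterByExpr (minimum count 10), with Benjamini-Hochberg adjustment over 11844 genes. The depth was 12513511 to 13561344 reads per library, which with 3 libraries a group gave 95% intervals of about 0.28 on the log2 scale to either side for the genes described. Alternatives were DESeq2 1.42.0, limma-voom (limma 3.58.1), other scalings and filters, a block for the replicate number, the second counting, a lowess correction (span 0.3) for GC content and length, and leaving out each library. Ratios were tested with scipy 1.17.1. Named genes are the 10 licensing genes, KDM1A, DBF4 and list genes with an unadjusted p under 0.05; further marker genes are named as checks of the cell line, and some marker genes are not reported here. The genes and lists were chosen with earlier results of these data known. The fit was tested on simulated counts, and the outcome is not given here. No pair of libraries was alike within sampling noise (chi-square per degree of freedom 6.19 to 37.4). Coordinates and GC content are from GENCODE release 44 on GRCh38, in which 15355 of 15585 genes were matched by symbol or, for 392 of these, through a RefSeq synonym. Promoter sequences are from RefSeq (GRCh38.p14), matched for 10 of 10 licensing genes and 9649 of 11844 tested genes.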

Additional observations from a re-analysis of the deposited data

How the results depend on the processing

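No licensing gene had an adjusted p under 0.05 in any of the 15 alternative fits (lowest adjusted p = 0.177, from edgeR with Benjamini-Hochberg adjustment). At an unadjusted p under 0.05 the count was 2 in the fit corrected for GC content and length (CDC7 and ORC4), where 24.3% of all tested genes were under it, and 0 in the other 14. Of 150 log2 fold changes of the 10 genes under these alternatives, 11 had another sign than in the report. In that fit these were 0.032 for ORC5, −0.013 for CDC6 and 0.049 for CDT1. With a library left out they were 0.0036 for ORC2, 0.092 and 0.090 for ORC5 (without siCTR replicate 2 or siLSD1 replicate 1), −0.030 and −0.081 for ORC3 and −0.011 and −0.013 for CDC6 (both without siCTR replicate 1 or siLSD1 replicate 3), and 0.012 for CDT1 (without siLSD1 replicate 3), where the leave-one-out ranges were −0.15 to 0.0036, −0.14 to 0.092, −0.081 to 0.12, −0.013 to 0.071 and −0.21 to 0.012. The leave-one-out range of the log2 ratio of CDT1 to GMNN was −0.18 to 0.18. The number of licensing genes whose groups did not overlap was 1, ORC6, by library size alone and in the second counting, where 21.7% of all tested genes did not overlap in each. Over all tested genes, the count at an adjusted p under 0.05 (171) was 323 with DESeq2, 290 without a filter, 897 with the replicate block, 873 with the GC correction and 58 to 136 with a library left out. At an unadjusted p under 0.05 (1662) it was 2546 with the block, 2854 with the GC correction and 1061 to 1712 with a library left out. The pathway genes lower at an unadjusted p (10) numbered 4 to 9 with a library left out (6.56% to 14.8%, with 3.79% to 7.43% of all tested genes). Those higher (1) numbered 2 with the block (3.28%, with 10.3% of all tested genes) and 3 with the GC correction (4.92%, with 12.4%). They numbered 1 to 2 with a library left out (1.64% to 3.28%, with 5.07% to 7.72%). Those with an adjusted p under 0.05 (1 of 61) numbered 2 with DESeq2, 5 with the block and 7 with the GC correction. The calls over all tested genes rose in these fits too. They were 171 of 11844 in the main fit, 323 of 11844 with DESeq2, 897 of 11844 with the block and 873 of 11765 with the GC correction. The alternatives for the pathway counts were chosen after seeing the data. The causes were not tested. The labels state no pairing by replicate number. Deviations of same-numbered libraries correlated at 0.328, 0.0744 and 0.310, and those of different numbers at −0.286 to 0.0072, so each library correlated best with its own number. The authors also deposited comparisons of same-numbered siCTR and siLSD1 libraries. The sources used here do not say that these were prepared as pairs. As replicate 2 stayed under 0.1, the numbers were not used as pairs. With the replicate block, 0 licensing genes reached an unadjusted p under 0.05 from edgeR, and the exact sign-flip test of the CDC7 to DBF4 ratio over 3 same-numbered pairs gave p = 0.25, the smallest it allows.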
